A study of Mus musculus with 2 samples.

Results

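The RNA of 5 genes of major histocompatibility complex (MHC) class II antigen presentation, Cd74, H2-Aa, H2-Ab1, H2-Eb1 and H2-Ea, was followed in endothelial cells of afferent lymphatic vessels and their surroundings. They are 5 of the 23521 genes measured. The 5 genes were chosen with earlier results on these libraries known, so their levels and their ratios of aged over adult cells are given as a description, without a test. Droplet 3' single-cell RNA was measured in FACS-sorted cells of the superficial cervical lymphatic system of FVB/N mice that carry the Prox1-GFP reporter, which marks lymphatic endothelium. The aged library came from 6 pooled mice of 93 weeks and the adult library from 6 pooled mice of 12 weeks. All animals of both ages carried the reporter, and no animal can be told from another in the pool. There is therefore 1 library per age, and age cannot be told apart from anything else that differed between the 2 libraries. The labels used here state neither the gate of the sort nor the sex of the mice.

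MHC class II molecules are pairs of an alpha and a beta chain that carry peptides from the endocytic pathway to the cell surface, where CD4 T cells read them. H2-Aa and H2-Ab1 encode the alpha and the beta chain of the H2-A molecule, and H2-Ea and H2-Eb1 those of the H2-E molecule. Cd74 encodes the invariant chain, which fills the peptide groove until the molecule reaches the endosome. Dendritic cells and B cells carry class II at rest, whereas endothelium makes it mainly under interferon-gamma, through the transactivator Ciita. FVB/N mice are of the H2q haplotype, in which the H2-E molecule is known to be missing from the cell surface, so the UMIs (unique molecular identifiers, here 1 per captured RNA molecule) of H2-Ea and H2-Eb1 count RNA and not surface protein.

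Class II promoters are known for a shared module, an X box bound by the RFX complex and a Y box bound by NF-Y, on which Ciita acts. The promoters of H2-Aa and H2-Eb1 are shown, and both carry this module close to the start of the gene. Only these 2 of the 5 genes had a promoter entry in the reference used, so the others were not searched. Both are from RefSeq on the build GRCm38.p6 and run from 250 bases before to 50 bases after the start of the gene. H2-Aa lies on the minus strand at chr17:34287774-34288073, and H2-Eb1 on the plus strand at chr17:34305617-34305916. Capitals mark the X box, searched as CTNGCAAC, and then the Y box, searched as CTGATTGG, on both strands and with no overlap.
H2-Aa: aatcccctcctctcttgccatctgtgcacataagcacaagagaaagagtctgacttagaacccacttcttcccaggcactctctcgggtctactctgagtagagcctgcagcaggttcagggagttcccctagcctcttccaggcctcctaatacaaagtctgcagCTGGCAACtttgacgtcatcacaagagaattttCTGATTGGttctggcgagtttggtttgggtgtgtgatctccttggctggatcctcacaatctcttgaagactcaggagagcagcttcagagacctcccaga
H2-Eb1: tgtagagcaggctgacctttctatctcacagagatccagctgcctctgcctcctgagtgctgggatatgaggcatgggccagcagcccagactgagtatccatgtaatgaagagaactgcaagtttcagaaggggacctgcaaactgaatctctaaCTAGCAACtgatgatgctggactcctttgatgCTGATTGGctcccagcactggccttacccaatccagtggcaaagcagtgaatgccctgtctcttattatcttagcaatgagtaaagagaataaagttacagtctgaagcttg
The X box began at base 167 in H2-Aa and at base 157 in H2-Eb1, and 25 and 24 bases lay between the 2 boxes. The X box was found in 3.42% of 32851 mouse promoters of this length and the Y box in 4.10%, and 59 promoters (0.180%) held both. By the same letters H2-DMa, H2-DMb1 and H2-DMb2, genes of class II peptide loading treated below, held neither box, and H2-Ob held the X box alone. A match of letters is a description and not a measured binding site, and a missing match does not show that a site is absent. The reference is of the C57BL/6J strain, and FVB/N alleles can differ from it.

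The aged library counted 6992 cells and 83509101 UMIs, and the adult library 7308 cells and 90875406 UMIs. A cell had a median of 11664 UMIs in the aged and 12088 UMIs in the adult library. The aged table as deposited also held 6977 barcodes of the adult table, 95.5% of the adult cells, with a median of 0.506 times their adult UMIs. These copies were left out of the aged library, and the main results are also given with them below. Cells were clustered without class II, class I and interferon genes and named by fixed markers. The aged and adult libraries held 512 and 902 endothelial cells with 3277633 and 6580482 UMIs. Of these, 300 aged and 394 adult cells were venous-like, 90 and 196 blood capillary-like, 40 and 64 arterial-like, 42 and 131 collecting lymphatic-like, and 20 and 101 capillary lymphatic-like. A further 20 and 16 endothelial cells, led by Nts and Tmem108, took no subtype. The venous-like cells carried all 8 of their markers, but Prox1, a lymphatic marker, was also found in 95.7% of the aged and 85.3% of the adult ones, so their name rests on the venous markers alone. The reporter RNA, eGFP, was found in 94.3% of the aged and 82.2% of the adult venous-like cells. Called cell by cell, with Prox1 as the mark of lymphatic endothelium, 369 aged and 581 adult cells were lymphatic endothelial, against 62 and 232 cells by cluster. Endothelial genes were in place in all 5 subtypes at both ages, with each of 7 general endothelial markers in at least 10% of the cells. Fibroblast RNA was also present: Dcn was found in 53.7% of aged and 61.2% of adult endothelial cells. The summed fibroblast markers were highest in arterial-like cells, at 3379 CPM in aged and 828 CPM in adult ones. The source of this RNA was not tested.

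Over all endothelial cells, the aged library held 86 UMIs of the 5 genes and the adult library 3992. As a counts-per-million value (CPM) of all UMIs of the class, this was 26.2 in aged endothelium and 607 in adult endothelium, with exact 95% Poisson intervals of 20.99 to 32.4 and 588 to 626 CPM. Aged over adult, this was a log2 ratio of -4.48 (-4.86 to -4.22), taken after adding 1 CPM to each. This and every interval below covers counting error only, not the spread between mice, of which there is no measure. With the copies of adult cells kept in the aged library the ratio was -0.88 in all endothelium, -0.53 in lymphatic and -0.94 in blood endothelium. All 5 genes were at least 2-fold lower in aged endothelium, where 1.43% of the 7142 measured genes were, and they had the 5 lowest ratios. All 5 passed the filter on low counts through the adult cells alone, and the median gene stood at 0.03.

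Cd74, the invariant chain, had 21 UMIs in aged and 1560 UMIs in adult endothelium (6.41 and 237 CPM), a log2 ratio of -5.01 (-5.91 to -4.59). Among the alpha chains, H2-Aa had 14 UMIs in aged and 531 in adult endothelium, at a ratio of -3.95 (-5.12 to -3.48). H2-Ea had 8 UMIs in aged and 648 in adult endothelium, at -4.85 (-6.55 to -4.35). Both alpha chains were thus under 5 CPM in aged cells, against 80.7 CPM for H2-Aa and 98.5 CPM for H2-Ea in adult cells. Among the beta chains, H2-Ab1 had 29 UMIs in aged and 768 in adult endothelium, at -3.58 (-4.31 to -3.19). H2-Eb1 had 14 UMIs in aged and 485 in adult endothelium, at -3.82 (-4.99 to -3.35). H2-Ab1 was the member with the most UMIs in aged endothelium and Cd74 the one with the most in adult endothelium.

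Subtypes differed widely in class II in the adult library, while neighbouring subtypes could not be ordered at the depth of the aged one. In the adult library, venous-like cells stood highest, at 903 CPM (871 to 937), followed by arterial-like cells at 659.9 CPM (588 to 739) and collecting lymphatic-like cells at 599 CPM (547 to 655). The intervals of the arterial-like and collecting lymphatic-like cells overlapped. Blood capillary-like cells followed at 201 CPM (178 to 225) and capillary lymphatic-like cells at 71.4 CPM (50.8 to 97.6), each apart from its neighbours. This order rests in part on a few cells and on the clustering. Of the 291 adult blood capillary-like UMIs, 217 lay in 2 of 196 cells, 1 of which had 121. Without cells with 20 or more class II UMIs, which were chosen after seeing the data, the adult levels were 317 CPM in venous-like, 277 CPM in arterial-like, 259 CPM in collecting lymphatic-like, 52.1 CPM in blood capillary-like and 71.4 CPM in capillary lymphatic-like cells, so that the last 2 changed places within overlapping intervals. At a higher resolution of the clustering the first place also changed, with 1637 CPM in the collecting lymphatic-like and 733 CPM in the venous-like cluster of the adult library. With class II, class I and interferon genes used in clustering, the adult collecting lymphatic-like cluster instead stood at 275 CPM. That was below the 660 CPM of the arterial-like and the 976 CPM of the venous-like cluster. In the aged library the order was blood capillary-like (38.6 CPM), venous-like (27.3 CPM), capillary lymphatic-like (24.2 CPM), collecting lymphatic-like (21.6 CPM) and arterial-like (7.12 CPM), and the intervals of all neighbours overlapped. Of the 22 aged blood capillary-like UMIs, 15 came from 1 cell.

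**Figure D1:**
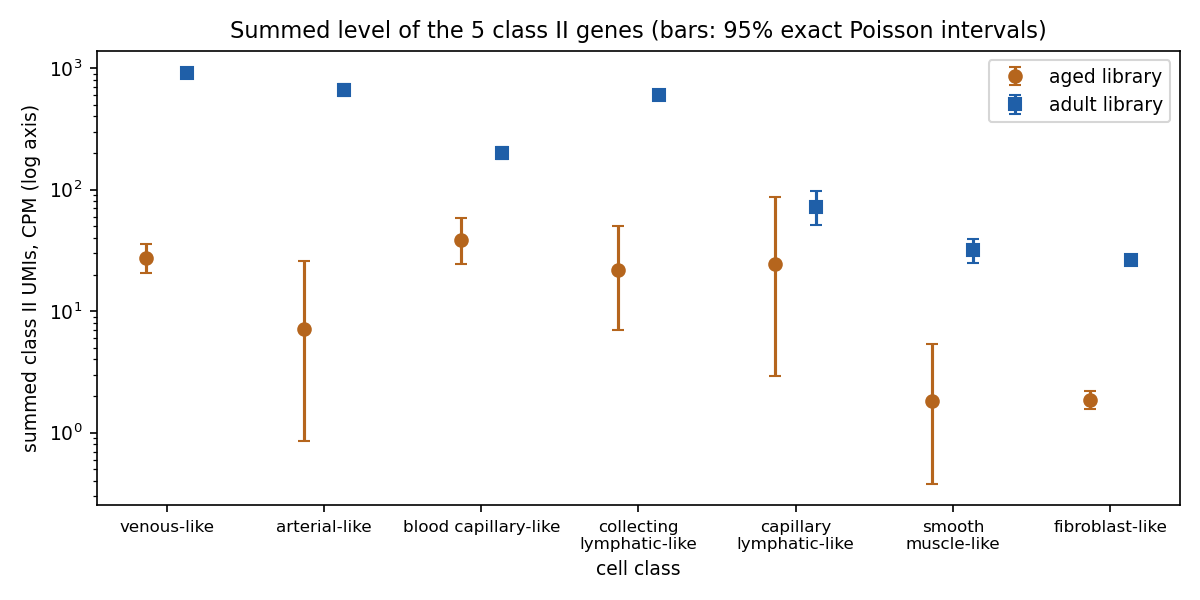
Summed level of the 5 class II genes (CPM, log axis) in each cell class, with the aged library as circles on the left and the adult library as squares on the right, and 95% exact Poisson intervals as bars. The adult levels run from 903 CPM in venous-like to 26.5 CPM in fibroblast-like cells, and no aged level is above 38.6 CPM.

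The aged level was below the adult level in each of the 5 subtypes, and the intervals of the 2 libraries overlapped only in capillary lymphatic-like cells. Venous-like cells held 54 class II UMIs in the aged and 2879 in the adult library, a log2 ratio of -5.00 (-5.47 to -4.66). Arterial-like cells held 2 UMIs in the aged and 303 in the adult library, at -6.35 (-9.59 to -4.67). Blood capillary-like cells held 22 and 291 UMIs, at -2.35 (-3.08 to -1.75), the smallest difference of these 3 subtypes. Without the 2 adult cells with 20 or more UMIs, a choice made after seeing the data, the level was 38.6 CPM (24.2 to 58.4) in aged and 52.1 CPM (40.9 to 65.4) in adult blood capillary-like cells, with overlapping intervals. Collecting lymphatic-like cells held 5 aged and 480 adult UMIs, at -4.73 (-6.42 to -3.56). Capillary lymphatic-like cells held 2 aged and 39 adult UMIs, at -1.52 (-4.66 to 0.39), so that no difference was detectable at this depth. Over both lymphatic subtypes the sums were 7 aged and 519 adult UMIs (-4.05, -5.43 to -3.06), and over the venous-, arterial- and blood capillary-like subtypes, called blood endothelium here, 78 aged and 3473 adult UMIs (-4.58, -4.97 to -4.31). With cells called one by one and split by Prox1, the ratio was -4.50 in lymphatic and -4.73 in blood endothelium. The lymphatic ratio depended on which cells counted as lymphatic: it was -3.05, on 7 aged and 249 adult UMIs, with class II, class I and interferon genes used in clustering. It was -3.35 without the 20 endothelial cells with the most class II and -3.23 without the subcluster with the most class II, both chosen after seeing the data.

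Every member took part in this. In venous-like cells, where 1.65% of 7041 measured genes were at least 2-fold lower in the aged library, all 5 were: Cd74 had 11 aged and 1159 adult UMIs, H2-Aa 11 and 374, H2-Ea 2 and 487, H2-Ab1 19 and 510, and H2-Eb1 11 and 349. Their log2 ratios ran from -6.26 for H2-Ea to -3.93 for H2-Ab1. In collecting lymphatic-like cells 3 members had no aged UMI. Set against a floor of 3 counts in the aged class, Cd74 was at least 14.0-fold lower, H2-Ab1 at least 12.6-fold lower and H2-Eb1 at least 6.54-fold lower there, while H2-Aa had 2 aged and 60 adult UMIs and H2-Ea 3 aged and 76 adult UMIs. In arterial-like cells, Cd74 had 1 aged and 136 adult UMIs, and H2-Aa, H2-Eb1 and H2-Ea had no aged UMI and 48, 29 and 37 adult UMIs. In blood capillary-like cells the ratios lay between -3.41 for H2-Aa and -1.54 for H2-Ab1, the 1 member there that passed the filter on low counts, and 2.2% of 5735 measured genes were at least 2-fold lower. Over lymphatic and blood endothelium, 3.67% and 1.41% of the measured genes were at least 2-fold lower. In all of these classes, also the venous-like cells, each member that passed the filter did so through the adult cells alone. The shares over all genes are therefore given for scale and are no test of the members.

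**Figure D2:**
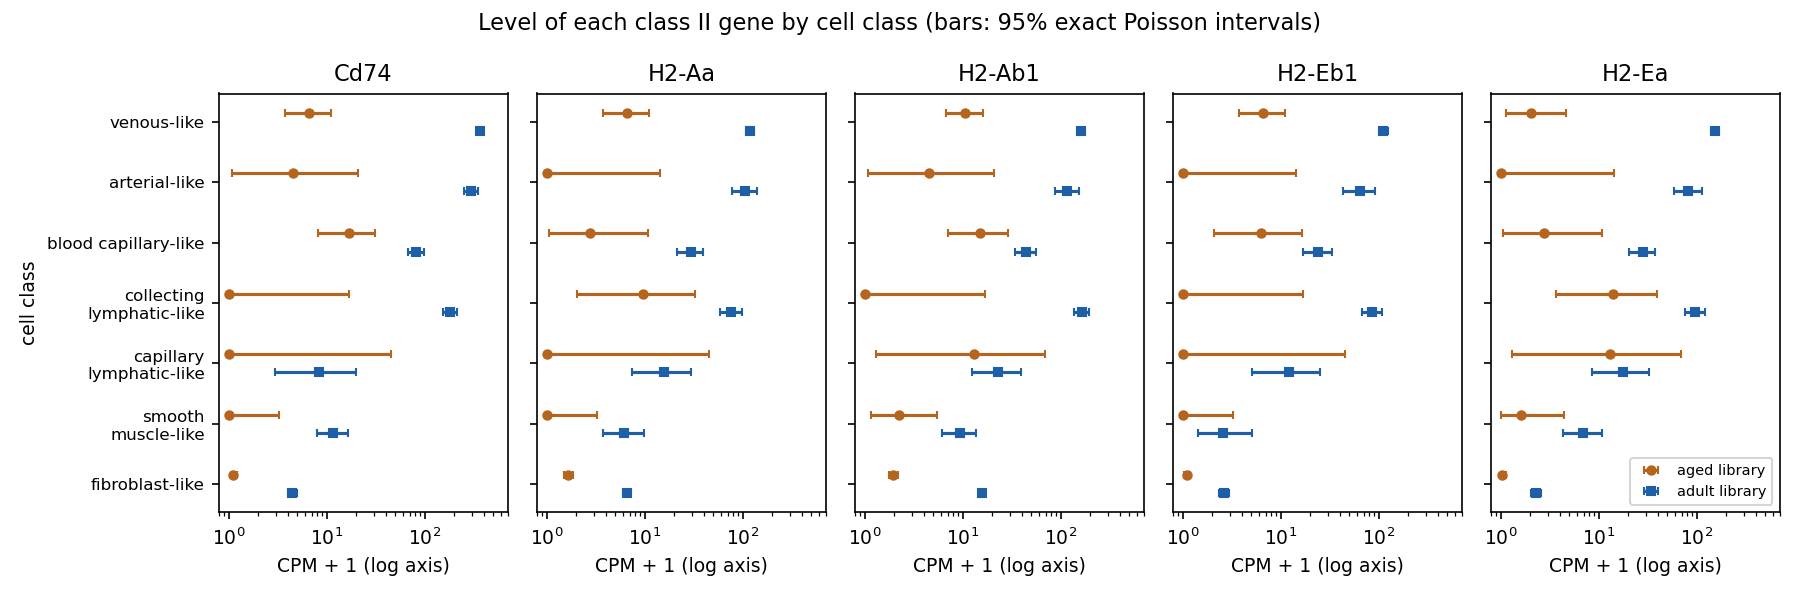
Level of each member (CPM + 1, log axis) by cell class, with the aged library as circles above and the adult library as squares below, and 95% exact Poisson intervals as bars; a circle at 1 is a gene with no aged UMI. Each of the 5 genes is lower in aged than in adult venous-like, arterial-like, blood capillary-like and collecting lymphatic-like cells, while the bars overlap for capillary lymphatic-like cells.

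Class II RNA was unevenly spread over cells. In the aged library 35 of 512 endothelial cells held a class II UMI, in the adult library 352 of 902. The highest cell had 15 UMIs in the aged and 121 in the adult library. No aged endothelial cell and 61 adult ones held 20 or more, and the tenth of adult cells with the most class II carried 79.2% of the UMIs. Most of the 61 cells were venous-like (50), and none was capillary lymphatic-like. Without the 20 cells with the most class II, all adult, the log2 ratio of endothelium was -3.88, a choice made after seeing the data.

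The share of cells with class II was compared at 1 depth, since aged and adult endothelial cells had medians of 6034 and 6979 UMIs. With every cell thinned to 2000 UMIs, 3.55% of aged endothelial cells (2.12 to 5.55%, Clopper-Pearson) and 25.9% of adult ones (23.1 to 28.9%) held a class II UMI, against 6.84% and 39.0% before thinning. Thinning left out 5 aged and 3 adult endothelial cells. Fibroblast-like cells, of a cell type that as a rule lacks class II, gave 0.266% in the aged and 3.76% in the adult library at the same depth. Endothelium as a whole stood above the fibroblast-like share in each library, but that share itself differed between the libraries. By subtype, 4.71% of aged and 40.4% of adult venous-like cells, and 2.38% of aged and 22.3% of adult collecting lymphatic-like cells, held a class II UMI. In capillary lymphatic-like cells it was 1 of 19 aged cells and 8 of 100 adult cells. Blood capillary-like cells gave 2 of 90 aged and 17 of 195 adult cells, and arterial-like cells 0 of 39 and 20 of 64. Of the aged subtypes, only the venous-like interval (2.60 to 7.78%) lay above that of aged fibroblast-like cells (0.152 to 0.432%). In the adult library the capillary lymphatic-like interval (3.52 to 15.2%) overlapped that of fibroblast-like cells (3.27 to 4.29%). With the copies of adult cells kept, the share in aged endothelium was 18.1%.

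In the adult library the members tended to occur in the same cells. Of the 207 adult endothelial cells with Cd74, 65.7% also held H2-Aa, 71.5% H2-Ab1, 60.9% H2-Eb1 and 62.8% H2-Ea. Among adult endothelial cells without Cd74 these shares were 6.76%, 14.7%, 3.45% and 5.04%. Within adult venous-like cells alone, H2-Aa was found in 67.1% of cells with and 11.6% without Cd74, and H2-Ab1 in 73.0% and 21.5%. Of the 12 aged endothelial cells with Cd74, 3 also held H2-Aa, 5 H2-Ab1, 4 H2-Eb1 and 2 H2-Ea. Adult endothelial cells with Cd74 were slightly deeper, with a median of 7644 UMIs against 6701 UMIs. All 5 genes were found together in 85 adult endothelial cells and in 1 aged endothelial cell.

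**Figure D3:**
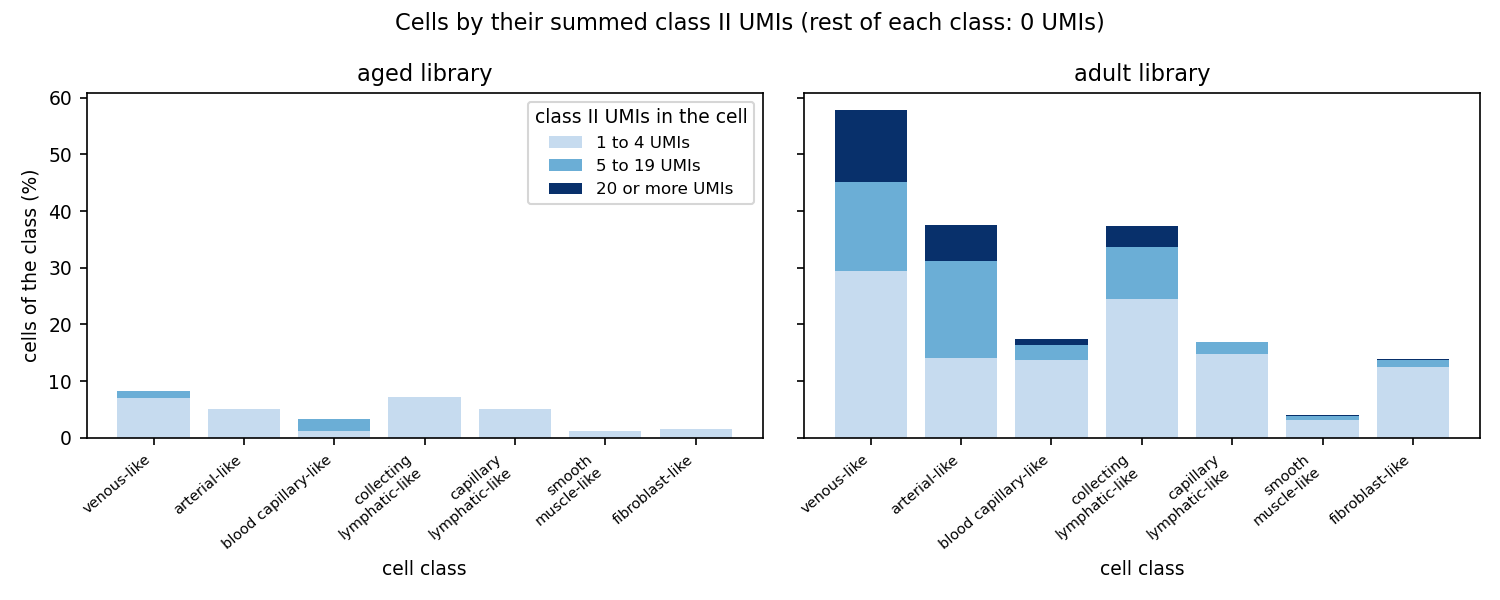
Share of the cells of each class with 1 to 4, 5 to 19 and 20 or more summed class II UMIs, in the aged library on the left and the adult library on the right, without thinning. Cells with 20 or more UMIs appear only in the adult library, most of them among venous-like cells.

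Clustering the endothelial cells again gave 12 subclusters, and 11 of these had at least 10 cells of each library. The aged level was below the adult level in all 11, with log2 ratios between -6.50 and -1.48. The -1.48, in the subcluster led by Ccl21a and Lyve1, had an interval of -4.62 to 0.44, so no difference was detectable there. The -6.50 rested on 14 adult cells, 1 of which held 96 of their 212 UMIs. In the subcluster led by Neo1 and Tmem108, 1 cell held 40 of the 41 adult UMIs. The highest subcluster held 11 aged and 31 adult cells and was led by Hs3st4 and Hamp. Its class II stood at 173 CPM in aged and 3547 CPM in adult cells, and 90.3% of its adult cells held a class II UMI. Its cells came from the venous-like (32 cells) and the collecting lymphatic-like (9 cells) clusters, and in the adult library it had both Prox1 (16428 CPM, all cells) and Vwf (734 CPM, 83.9% of cells) but little Selp (16.0 CPM). It gave 889 of the 3992 adult endothelial class II UMIs.

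Aged and adult venous-like cells lay largely in different subclusters. A subcluster led by Cyp1b1 and Igfbp6 held 218 aged and 14 adult cells, at 19.97 CPM of class II in aged and 1897 CPM in adult cells. A subcluster led by Selp and F5 held 50 aged and 256 adult cells, at 35.0 CPM in aged and 617 CPM in adult cells. One more, led by Cyp26b1 and Klk8, held 21 aged and 98 adult cells, at 18.4 CPM in aged and 911 CPM in adult cells. Class II was thus lower in aged cells inside each of these 3 subclusters. The blood capillary-like cells also split. A subcluster led by Tmem252 and Vcan, in which Selp was found in 75.0% of adult cells, had 93.7 CPM in aged and 605 CPM in adult cells. Both levels rest on few cells. Of its 270 adult UMIs, 121 lay in 1 cell, and 2 of its 48 adult cells held 20 or more. Its 22 aged UMIs lay in 3 of 32 cells. A subcluster led by Penk and Esm1 had no aged UMI and 31.7 CPM in adult cells, and one led by Timp4 and Car4, with 9 aged and 14 adult cells, had no aged UMI and 1 adult UMI.

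Outside endothelium the summed level of the 5 genes was below that of endothelium as a whole in both libraries. Smooth muscle-like cells held 3 class II UMIs in 245 aged cells and 80 UMIs in 319 adult cells (1.82 and 31.6 CPM), and 46 of the adult UMIs came from 1 cell. Fibroblast-like cells held 139 UMIs in 6009 aged and 1960 UMIs in 5542 adult cells (1.85 and 26.5 CPM). Their intervals overlapped with those of smooth muscle-like cells in each library. Adult fibroblast-like clusters ran from 5.91 to 59.0 CPM, the highest led by Plcxd3 and C7, and so reached above the 31.7 CPM of the adult endothelial subcluster led by Penk and Esm1. The log2 ratio in fibroblast-like cells, here without an added CPM because levels were near 1, was -3.84 (-4.10 to -3.60). In smooth muscle-like cells it was -4.11 (-6.42 to -2.52) on the same scale. Endothelium stood at -4.53 there, venous-like cells at -5.05, arterial-like at -6.53, collecting lymphatic-like at -4.79, blood capillary-like at -2.38 and capillary lymphatic-like at -1.56. A lower aged level was thus not particular to endothelium. Of the members, only H2-Ab1 was found in enough fibroblast-like cells to count as measured, with 72 aged and 1081 adult UMIs, and it did so through the adult cells alone. Of the 8658 genes measured there, 0.855% were at least 2-fold lower. No member reached that filter in smooth muscle-like cells, where 2.7% of genes were at least 2-fold lower.

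The mix of members differed between endothelium and fibroblast-like cells. Cd74 made up 24.4% of the class II UMIs in aged endothelium (15.8 to 34.9%) and 39.1% in adult endothelium (37.6 to 40.6%). In fibroblast-like cells it made up 5.76% in the aged library (2.52 to 11.0%) and 13.1% in the adult library (11.6 to 14.6%). H2-Ab1 made up 33.7% of the UMIs in aged and 19.2% in adult endothelium, against 51.8% in aged and 55.2% in adult fibroblast-like cells. In adult fibroblast-like cells with fewer than 20 class II UMIs, Cd74 made up 5.28%. In the adult library the intervals do not overlap between the 2 cell types for either gene. Within adult endothelium Cd74 ran from 10.3% in capillary lymphatic-like cells, on 39 UMIs, and 30.2% in collecting lymphatic-like cells to 44.9% in arterial-like cells. H2-Ea, the H2-E alpha chain, made up 16.2% of the class II UMIs in adult endothelium and 4.85% in adult fibroblast-like cells.

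**Figure D4:**
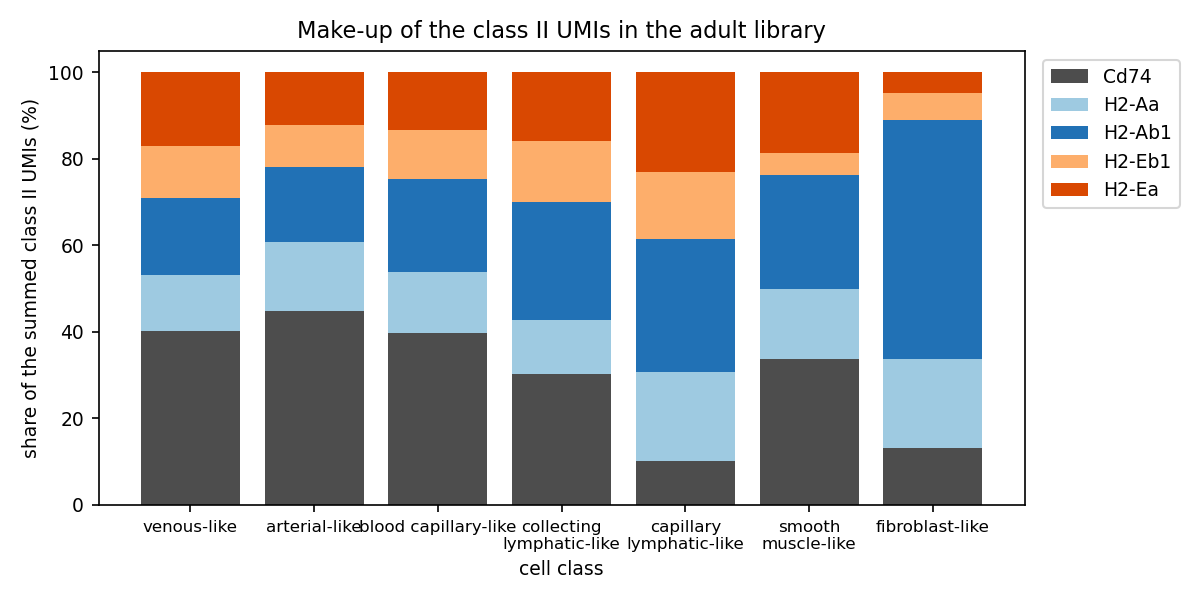
Share of each member in the summed class II UMIs of a cell class in the adult library, stacked to 100%. Cd74 is the largest share in every class but capillary lymphatic-like and fibroblast-like cells, and H2-Ab1 makes up 55.2% in fibroblast-like cells.

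Both sexes were present in both pools, as read from UMIs of Xist and of Y-linked genes in each cell. In the aged library 206 endothelial cells were female and 204 male, in the adult library 418 and 328. Adult female endothelial cells held 899 CPM of class II (866 to 933) and adult male ones 263 CPM (243 to 283). Aged female endothelial cells held 26.0 CPM (18.2 to 35.9) and aged male ones 23.2 CPM (15.7 to 33.2), with overlapping intervals. The log2 ratio of aged over adult was -5.06 in female and -3.44 in male cells. Each of the 5 genes was higher in female adult endothelium, Cd74 at 353 CPM in female and 94.5 CPM in male cells. Of the 61 adult cells with 20 or more class II UMIs, 42 were female, 8 male and 11 without a call.

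This gap between the sexes was seen in 4 of the 5 adult subtypes. Adult venous-like cells held 1364 CPM in female and 357 CPM in male cells, arterial-like cells 979.5 and 151 CPM, collecting lymphatic-like cells 1058 and 185 CPM, and capillary lymphatic-like cells 106 and 30.8 CPM. Adult blood capillary-like cells held 244 CPM in female and 212 CPM in male cells, with overlapping intervals, and without the 2 cells with 20 or more UMIs 65.5 CPM in female and 38.9 CPM in male cells, again overlapping. Without such cells the intervals of the sexes remained apart in adult venous-like cells (428 CPM in female and 196 CPM in male cells), arterial-like cells (326 and 151 CPM) and collecting lymphatic-like cells (361 and 185 CPM). Adult fibroblast-like cells held 25.6 CPM in female and 28.7 CPM in male cells, with overlapping intervals. Of their 5 cells with 20 or more UMIs 4 were male, and without the 5 the level was 25.1 CPM in female (23.5 to 26.8) and 17.7 CPM in male cells (16.2 to 19.3). Adult smooth muscle-like cells held 54 UMIs in female and 7 in male cells, and 46 of the female UMIs were those of the 1 cell named above. The mice are not marked in the pool, so a difference between the sexes and a difference between single mice cannot be told apart.

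**Figure D5:**
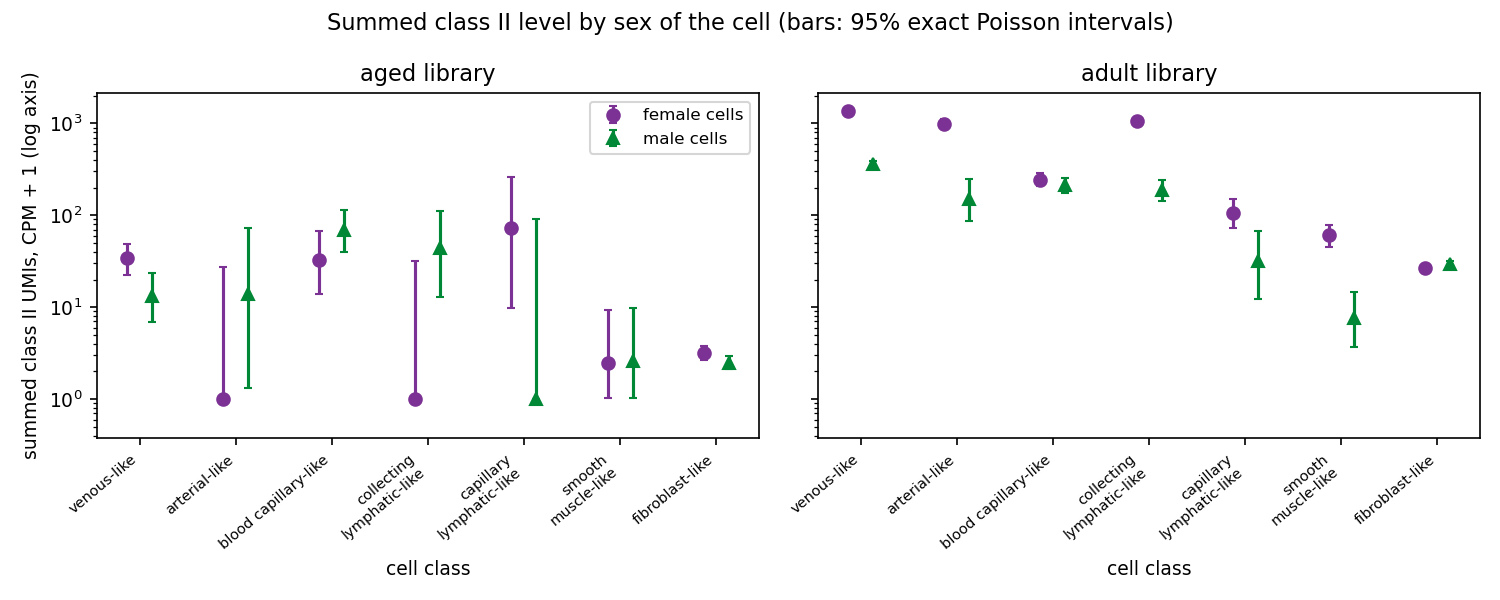
Summed class II level (CPM + 1, log axis) of female cells (circles) and male cells (triangles) of each class, with the aged library on the left and the adult library on the right and 95% exact Poisson intervals as bars. Female cells lie above male cells in adult venous-like, arterial-like, collecting and capillary lymphatic-like and smooth muscle-like cells, and the bars of the sexes overlap in every aged class.

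Class II is also the mark of immune cells, so their markers were counted in the same cells. Ptprc (CD45), Coro1a, Cd52 and Tyrobp had 0 UMIs in all 512 aged and all 902 adult endothelial cells, which allows up to 0.586% and 0.333% of cells with a UMI of the gene and sets no limit on cells that express it. In the 61 adult endothelial cells with 20 or more class II UMIs, 18 of 27 immune markers had 0 UMIs, among them Ptprc, Laptm5, Coro1a, Cd52, Tyrobp, Flt3, C1qa and Ms4a1. The other 9 had UMIs, among them Zbtb46 with 26, Cd3e with 21 and Fcer1g with 11. Pecam1, an endothelial adhesion molecule, was found in 98.4% of these cells. The summed level of the 27 immune markers was 81.8 CPM in aged and 121 CPM in adult endothelium. The largest parts of these sums were Zbtb46, of the dendritic list, with 166 aged and 369 adult UMIs, and Fscn1 with 24 and 126. Zbtb46 was found in 32.8% of the 61 cells and in 27.1% of adult endothelial cells with 0 class II UMIs. It was also found in 16.3% of adult fibroblast-like cells, so it was not particular to cells with class II. In the 61 cells the sum was 129 CPM, against 131 CPM in adult endothelial cells with 0 class II UMIs, but single lists differed. The T cell list stood at 48.7 CPM in the 61 cells and 14.0 CPM in the cells with 0 class II, and the pan-immune list at 20.6 and 4.48 CPM. In the 61 cells, 21 of the 26 T cell list UMIs were of Cd3e and lay in 4 cells. All 11 pan-immune UMIs were of Fcer1g, also in 4 cells. In fibroblast-like cells the T cell list stood at 62.8 CPM in the aged and 47.3 CPM in the adult library. The dendritic list stood at 52.5 CPM in the 61 cells and 88.3 CPM in those with 0 class II, the macrophage list at 5.62 and 22.7 CPM, and the B cell list at 1.87 and 1.58 CPM. The part of these UMIs in the class II level was not tested. Without any cell that held a UMI of these markers the log2 ratio of endothelium was -4.01. This left out 33.8% of aged and 43.1% of adult endothelial cells.

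Part of the machinery around class II was also lower in aged endothelium. Of the 12 genes of class II peptide loading in the tables, 10 had 20 or more UMIs in endothelium, and 3 of them were at least 2-fold lower and none higher in aged cells. Of all 12237 genes with 20 or more UMIs in endothelium, 3.96% were at least 2-fold lower and 1.35% higher. These 3 encode H2-DM, which exchanges the last piece of the invariant chain for peptide. H2-DMa had 13 aged and 113 adult UMIs (log2 ratio -1.87, -3.07 to -1.28), H2-DMb1 had 2 aged and 93 adult UMIs (-3.23) and H2-DMb2 had 0 aged and 27 adult UMIs. All 3 reached 20 UMIs through the adult cells alone. The shares over all genes, here and for the lists below, are therefore given for scale and are no test. Of the proteases that cut the invariant chain and antigens, Ctsl and Ctsb lay close to the median gene and Lgmn slightly above it, at 0.35 (0.22 to 0.49). Ctss had 0 aged and 1 adult UMI and was therefore not measured. Ctsl had 233 CPM in aged and 241 CPM in adult endothelium, Ctsb 206 and 221 CPM, and Lgmn 229 and 179 CPM. The median ratio of the list was -0.11, against 0.03 over the 7142 measured genes.

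Of the 8 genes of class II transcription, 1 was at least 2-fold lower in endothelium (3.96% of all genes with as many UMIs) and none higher. This was Ciita, the transactivator, with 2 aged and 22 adult UMIs (log2 ratio -1.43, interval of the ratio without the added CPM -5.59 to -0.43). The subunits of RFX and NF-Y, which bind the X and Y boxes shown above, were within 2-fold over all endothelium: Rfx5 had 5.80 CPM in aged and 5.78 CPM in adult endothelium, Rfxap 15.2 and 25.2 CPM and Nfya 28.4 and 31.3 CPM. In lymphatic endothelium, 2 of the 5 genes of this list with enough UMIs were at least 2-fold lower, where 7.14% of 8079 genes with as many UMIs were: Rfxap with 4 aged and 50 adult UMIs (-1.47) and Nfyb with 6 and 64 (-1.27). Both passed that filter through the adult cells alone. In the adult subcluster with the most class II, Ciita stood at 23.9 CPM, H2-DMa at 63.8 CPM and H2-DMb1 at 55.9 CPM, against 2.53, 15.3 and 12.5 CPM in the other adult endothelial cells. This subcluster was picked by its class II level after seeing the data. Its values rest on 6 Ciita, 16 H2-DMa and 14 H2-DMb1 UMIs in 31 cells.

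Of 11 interferon-gamma signalling genes with enough UMIs, 3 were at least 2-fold lower in aged endothelium, again beside 3.96% of all genes, and none higher. Iigp1, an interferon-induced GTPase, had 148 CPM in aged and 498 CPM in adult endothelium (log2 ratio -1.74, -1.89 to -1.61), Irgm1 9.15 and 23.1 CPM (-1.25) and the chemokine Cxcl10 4.58 and 11.1 CPM (-1.12). Cxcl10, with 15 aged and 73 adult UMIs, passed the filter through the adult cells alone. The receptor chain Ifngr1 (0.25), the kinases Jak1 (-0.22) and Jak2 (0.14) and the transcription factor Irf1 (-0.17) stayed within 2-fold. Of 4 costimulation and turnover genes with enough UMIs, 1 was at least 2-fold lower, Cd274 (PD-L1, an inhibitory ligand of T cells), with 8 aged and 85 adult UMIs (-2.02, -3.66 to -1.36). Cd274, too, passed the filter through the adult cells alone. The costimulatory genes Cd86 and Cd83 had 0 UMIs in endothelium of both libraries, and Cd80 had 3 aged and 4 adult UMIs.

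Lower levels of interferon genes in the aged library were also found outside endothelium. In smooth muscle-like cells 6 of the 12 interferon-gamma signalling genes were at least 2-fold lower and none higher, where 5.55% of 10787 genes with 20 or more UMIs were lower and 1.08% higher, Cxcl10 with 25 aged and 668 adult UMIs and Cxcl9 with 1 and 177. There Cxcl9 passed the filter through the adult cells alone. In fibroblast-like cells 3 of 12 were lower, Irgm1, Iigp1 and Cxcl9, where 1.16% of 17500 such genes were. The part of these genes in the class II difference was not tested.

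Among 9653 genes and 11 groups of subtype and age with 50 or more cells, the genes outside these lists whose level was most like the summed class II level were Ess2 (Pearson's r of log2(CPM + 1) 0.91), Nlrc5 (0.90), Gbp3 (0.89), Tnip2 (0.89), Psmb9 (0.89), Psmg4 (0.88), Abcb8 (0.88) and Txndc12 (0.88). H2 class I genes were also left out of this ranking, so it does not place them. The groups come from only 2 libraries, so the correlation describes them and carries no p. Nlrc5, the transactivator of MHC class I genes, had 8.08 CPM in aged and 33.6 CPM in adult venous-like cells. Psmb9, an immunoproteasome subunit, had 39.4 CPM in aged and 143 CPM in adult venous-like cells. Ess2 stood at 8.08 CPM in aged and 15.7 CPM in adult venous-like cells, and all 8 genes spanned a far narrower range than the class II genes.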

How the data were processed

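Per the labels, sorted cells were captured with 10x Chromium 3' v3.1 chemistry. Per the submitters' processing notes, Seurat 5.0.3 was used and the builds GRCm39 and mm10 are named without a role; no aligner is named in them. As found from the values, the authors deposited the natural log (ln) of 1 plus UMIs scaled to 10000 per cell, and 100% of UMI counts came out whole within 0.01. Rows of the aged table carry no gene names and took those of the adult table in order; over the copied cells each member correlated at 0.85 to 0.97 with its own row and at most 0.17 with other rows. Members, lists and markers were chosen with earlier results of these data known.

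Cells were clustered together on 2000 variable genes, 30 principal components and 15 neighbours (scikit-learn 1.9.0) by Leiden (igraph 0.11.9) at resolution 1. A cluster took the class with the highest mean log2 fold of its markers, if at least 1, and 3 or more markers in 10% of cells. Clusters led by markers of another class stayed apart (216 aged and 545 adult cells), and 10 aged cells led by Dcpp1 stayed unnamed. Names are rebuilt and may differ from the authors' own. UMIs were summed per class and library. Ratios add 1 CPM; their intervals are conditional binomial intervals without it, so a ratio of a low gene can lie outside its interval. A gene was measured with a UMI in 10% of a class's cells in a library and 50 UMIs in both together; list genes needed 20 UMIs. Female cells had Xist and no Y-linked UMI, male cells the reverse. Named genes were the 5 members, all genes of 4 lists, and the 8 genes most like the members outside the lists and outside H2 class I. The ratio step was tested on simulated counts with 200 changed genes. Doublets were left in: Scrublet (scanpy 1.11.5) called 1 of 6992 aged and 0 of 7308 adult cells and was taken not to have worked.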

Additional observations from a re-analysis of the deposited data

Results flagged for a closer look

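The copies of adult cells in the aged table lie outside the comparisons above. They held 3215 class II UMIs, or 70.8 CPM, against 2.81 CPM in the aged cells used and 68.6 CPM in the adult library, and a count of 0 would have allowed up to 0.066 CPM. The 833 copies of adult endothelial cells stood at 638 CPM, close to the 607 CPM of adult endothelium.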

How the results depend on the processing

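The summed class II level stayed lower in the aged library in all 39 values of the 3 ratios over endothelium, lymphatic and blood endothelium, which ran from -5.48 to -0.53 on the log2 scale. In the order endothelium, lymphatic, blood, the ratio was -0.88, -0.53 and -0.94 with all cells as deposited, -5.06, -5.48 and -5.07 in female cells and -3.44, -2.05 and -3.64 in male cells. Without cells with an immune marker UMI it was -4.01 in endothelium and -3.95 in blood endothelium, and with class II, class I and interferon genes among the variable genes -3.05 in lymphatic endothelium. Of alternatives chosen after seeing the data, leaving out the 20 cells highest in class II gave -3.88 and -4.00 in endothelium and blood endothelium, and leaving out the venous-like subcluster mostly of aged cells gave -4.18 and -4.17. Single members kept a negative ratio in 74 of 75 values; H2-Ea in male lymphatic cells was 0.34. The adult venous-like level of 903 CPM was 733 at a higher resolution, 976 with the immune genes among the variable genes, 766 without cells with an immune marker UMI, 1364 in female and 357 in male cells, and 317 without cells with 20 or more class II UMIs, a choice made after seeing the data. At a higher resolution the adult collecting lymphatic-like level was 1637 CPM, above the venous-like one, against 599 CPM as reported. With the immune genes among the variable genes it was 275 CPM, below the venous-like one. The share of cells with class II was 6.84% unthinned and 18.1% with all cells in aged endothelium, and 39.0% unthinned and 34.2% at 4000 UMIs in adult endothelium. Without a filter on low counts, 725 genes were at least 2-fold lower and 280 higher in aged endothelium, against 102 and 53. The cause of these shifts was not tested. With 5 CPM added, subtypes weighted equally, per-cell shares averaged, cells chosen one by one or a higher resolution, the 3 ratios stayed within their counting intervals. The alternative without called doublets was not run, since the caller had not worked. No paired analysis was possible because there is 1 pooled library per age. Depth limits the aged lymphatic subtypes most, with 7 class II UMIs in 62 cells.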
